A study of Mus musculus with 6 samples.

Results

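T cells and innate lymphoid cells (ILCs) made up 406 of 102534 cells kept from 6 single-cell libraries of the mouse intestinal lamina propria, or 0.396%. The cells had been sorted as live and tdTomato+ from Flare-TSLP mice on the C57BL/6 background. In these mice a tdTomato reporter behind an internal ribosome entry site, with loxP sites around exons of Tslp, was knocked into the gene of the epithelial and stromal cytokine TSLP, from 1 embryonic stem cell clone. All groups carry that allele, and the labels give no treatment. The libraries came from proximal jejunum (proximal replicates 1 and 2), distal ileum (distal replicates 1 and 2), cecum (1 library) and large intestine (1 library). Mice were 8 to 12 weeks old and of both sexes, and 3 hashtag antibodies were in use in each library, but the hashtags could not be tied to single mice. A member was chosen by its transcripts: at least 1 unique molecular identifier (UMI) of Ptprc, the pan-leukocyte gene for CD45, at least 2 of Cd3e, Cd3g, Cd3d, Il7r, Gata3, Rora, Thy1 and Trbc2 including a CD3 gene or Il7r, and no UMI of Cd79a, Csf1r, Prox1 or Pdgfra. The levels of these genes are therefore a description and not a result.

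T cells recognise antigen through a receptor of alpha-beta or gamma-delta chains coupled to the CD3 proteins. ILCs lack that receptor and answer cytokines and neuropeptides. Group 2 cells (ILC2s) depend on Gata3 and make IL-5 and IL-13, whereas group 3 cells (ILC3s) answer IL-23 and make IL-22. TSLP acts through a receptor of Crlf2 and Il7r chains that signals by JAK1, JAK2 and STAT5, so these lymphocytes are candidate recipients of the signal that the sorted stromal cells report.

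The members were shallow. Their median was 5111 UMIs (range 2531 to 24231) and 2209 genes, against library medians of 6772 to 9413 UMIs over all kept cells. No member held a tdTomato UMI, which allows a share of up to 0.739% of cells with a UMI but sets no limit on cells that express the reporter, and none held a Tslp UMI. tdTomato transcripts were found in 3011 kept cells (2.94%) and Tslp in 1418 (1.38%). Why cells without these transcripts were in the sorted fraction was not tested. By flow cytometry the study found few tdTomato+ cells with CD45, and those only among CD31+ endothelial cells. Its own single-cell analysis took out clusters with very few tdTomato+ cells as contaminants. Stromal transcripts were present: 167 of 406 members held at least 3 fibroblast markers and 14 held 3 or more myeloid markers. Other markers were carried by 184 (45.3%): 3 or more of another cell type, or a UMI of the plasma cell gene Mzb1. In the small intestine the collagen gene Col3a1 summed to 412 ± 186 CPM (UMIs summed over cells and scaled to the total gene UMIs of those cells, mean ± SD, n = 4 libraries) in members, to 365 ± 104 in Prox1 cells and to 7538 ± 139 in stromal Pdgfra cells. A doublet caller marked 15 members (3.69%) against 8.75% of kept cells, and 23 members (5.67%) carried several hashtags against 11.1%. The rule had already removed cells with a UMI of Cd79a, Csf1r, Prox1 or Pdgfra, so these rates do not show that members were cleaner than other cells. The barcodes of 5 members were also kept in another library.

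Of the 406 members, 291 held a UMI of Cd3e, Cd3g or Cd3d and 115 held none. A group of 18 members went against the label: 5 held Siglech and the others held 20 or more UMIs of the MHC class II genes H2-Aa, H2-Ab1, H2-Eb1 and Cd74, which load and present peptide in antigen-presenting cells. All 5 cells with Siglech (6 to 20 UMIs each) also held Grm8, Irf8, Tcf4, Blnk, Tyrobp and Ccr9, and none held a UMI of Cd3e, Cd3g, Cd3d, Trac, Trbc1 or Trbc2. The 18 cells came from proximal replicate 1 (6), proximal replicate 2 (3), distal replicate 1 (8) and distal replicate 2 (1). They made up 13 of the 115 members without a CD3 transcript, so comparisons by CD3 are given without them.

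Cells just inside and just outside the rule differed in their stromal content. The 7 members with a single Ptprc UMI and exactly 2 of the 8 genes had 161 CPM of the T cell kinase gene Lck and 1816 CPM of Col3a1. The 46 cells that passed the gene count but had no Ptprc UMI had 15.0 CPM of Lck and 2831 CPM of Col3a1. The 87 cells with Ptprc but only 1 of the 8 genes had 4.58 CPM of Lck. A further 314 cells passed all but the last condition, holding a UMI of Cd79a, Csf1r, Prox1 or Pdgfra, and had 82.7 CPM of Lck with 2721 CPM of Col3a1. The number of members depends on that last condition.

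T cells and ILCs took a larger share of the sorted cells in each small intestinal library than in the cecum or large intestine library. Members were 0.521% of kept cells in proximal replicate 1 (90 of 17282, 95% exact binomial interval 0.419 to 0.640), 0.697% in proximal replicate 2 (125 of 17924, 0.581 to 0.830), 0.427% in distal replicate 1 (91 of 21299, 0.344 to 0.524) and 0.398% in distal replicate 2 (81 of 20327, 0.317 to 0.495). The cecum gave 0.0573% (8 of 13951, 0.0248 to 0.113) and the large intestine 0.0936% (11 of 11751, 0.0467 to 0.167). These intervals cover counting error only. All 4 small intestinal libraries lay above both others (0.511 ± 0.135% against 0.0755 ± 0.0256%), a difference of 0.435 percentage points. The two-sided exact permutation test over libraries gave p = 0.133, the smallest that 4 against 2 libraries allow.

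**Figure D1:**
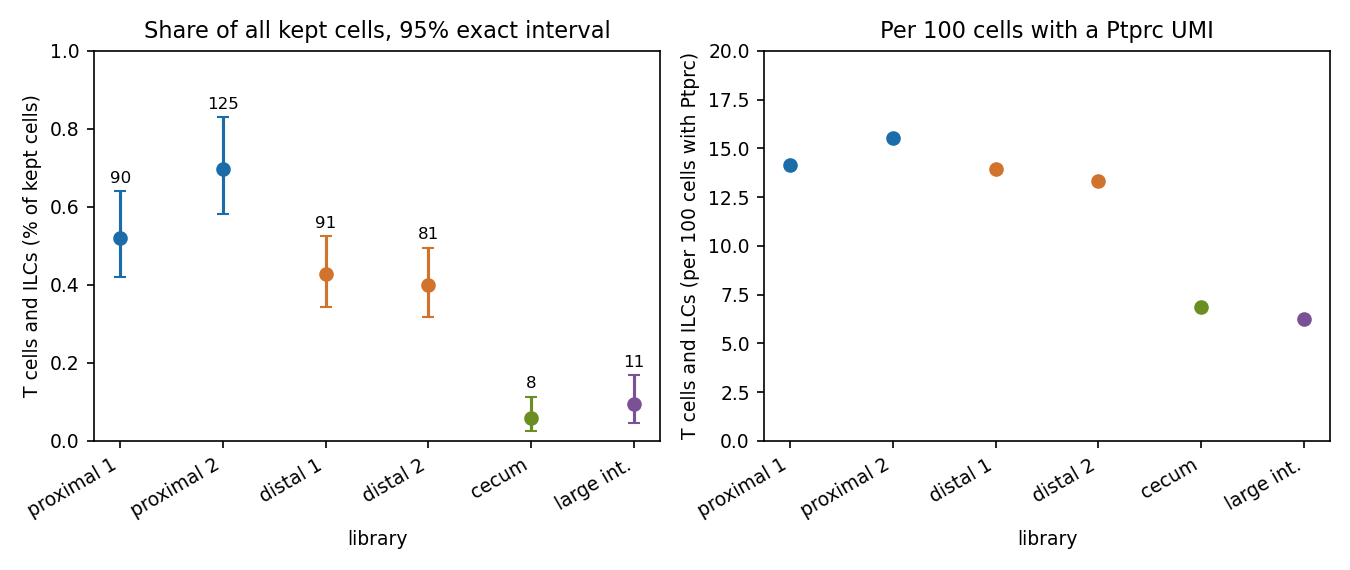
Share of T cells and ILCs in each library. Left, percent of kept cells with 95% exact binomial intervals and the number of members above each point. Right, members per 100 cells with a Ptprc UMI, where the 4 small intestinal libraries lie between 13.3 and 15.5 and the cecum and large intestine at 6.84 and 6.25.

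Between the proximal and distal small intestine the shares were 0.609 ± 0.125% and 0.413 ± 0.0203% (n = 2 libraries each), a difference of 0.196 percentage points that could not reach a p below 0.333 in this design (two-sided exact permutation test, p = 0.333). Per 100 cells with a Ptprc UMI the values were 14.8 ± 0.960 and 13.7 ± 0.433. The denominators moved too: Prox1 cells without Ptprc, lymphatic endothelium by that marker, were 13.7, 28.8, 3.49 and 28.6% of kept cells in proximal replicates 1 and 2 and distal replicates 1 and 2, and 1.62% and 2.38% in the cecum and large intestine. Their part in the shares was not tested.

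Graph-based clustering divided the members into 8 clusters of 82, 74, 67, 58, 48, 41, 22 and 14 cells. Genes that define these clusters were used to make them, so their levels are given as a description, with no test. All 8 clusters were found in all 4 small intestinal libraries. All members from the cecum and large intestine fell in clusters 1 to 4, and 6 of 8 and 7 of 11 of them in cluster 4. Clusters 5 to 8 held no cell of those 2 libraries, which gave only 8 and 11 members to look in.

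**Figure D2:**
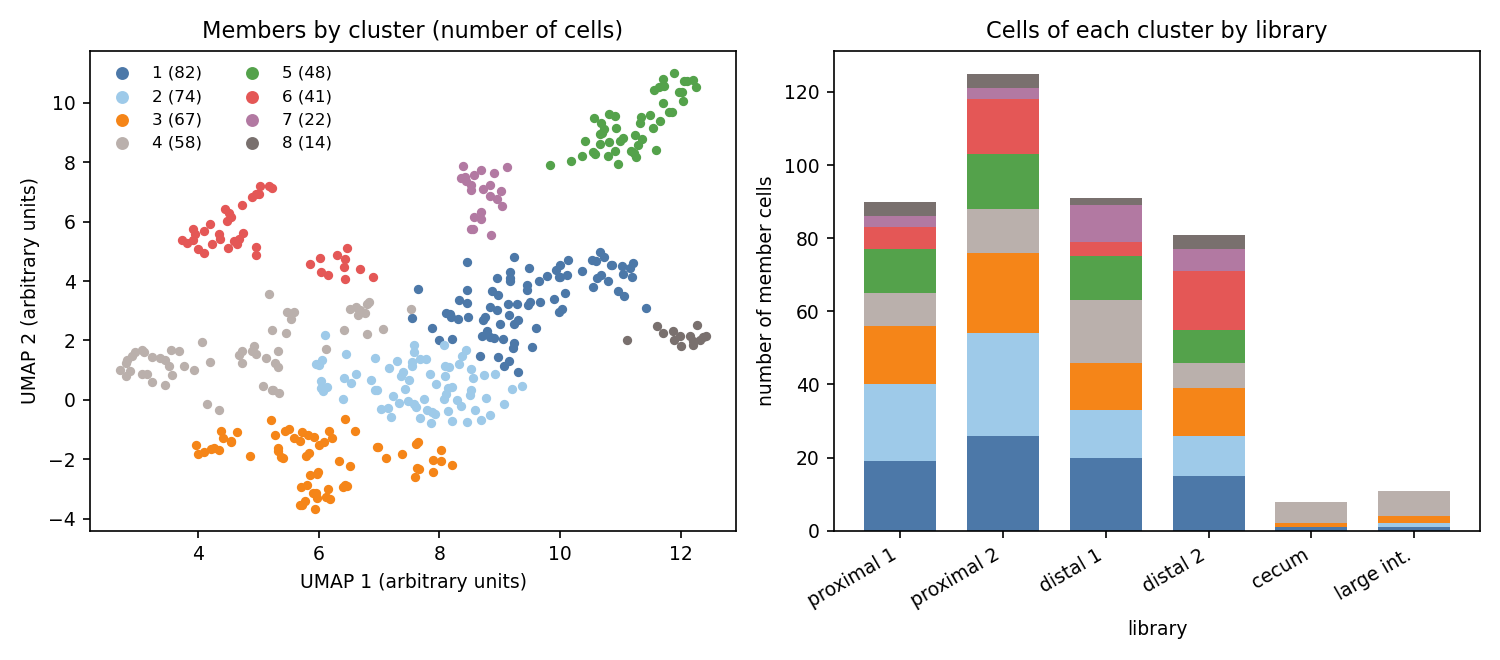
Left, the 406 members by uniform manifold approximation and projection (axes in arbitrary units), coloured by cluster with cell numbers in brackets. Right, the number of cells of each cluster in each library, in the same colours. Clusters 5 (48 cells) and 6 (41 cells) were not seen among the 8 and 11 members of the cecum and large intestine.

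Cluster 6 (41 cells) was ILC2-like, with 9 of 10 ILC2 markers raised. Il17rb, the receptor subunit for IL-25, was found in 31 of the 41 cells and in 39 of all 406. Hs3st1, a heparan sulfate sulfotransferase gene, was found in 29, Gata3 in 33, the receptor gene Klrg1 in 18 and the neuromedin U receptor gene Nmur1 in 3. Il1rl1, the IL-33 receptor, was found in only 5, and 6 other cells with it were in cluster 8. A CD3 transcript was present in 5 of the 41 cells, while 36 held Trbc1 or Trbc2, constant-region transcripts that ILCs can carry without a receptor. Type 2 cytokine transcripts were found here, Il4 in 27 cells of 36 members with it, Il13 in 13 of 16 and Il5 in 6 of 7. Areg, of the epidermal growth factor family, was found in 14 of 36, with 9 more in cluster 8 and 8 in cluster 1. Il4 and Il17rb were found together in 25 cells and Il4 and Il13 in 11. At least 1 of Il4, Il5 and Il13 was found in 40 members, and 30 of these were in cluster 6.

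By library, cluster 6 held 6, 15, 4 and 16 cells in proximal replicates 1 and 2 and distal replicates 1 and 2. Il4 was detected in 3 of 6, 12 of 15, 1 of 4 and 11 of 16 of them, and Il13 in 1, 4, 0 and 8. In both regions replicate 2 held more of these cells than replicate 1, and more with Il4 and with Il13. In cell number the replicates differed more than the regions did. In stromal Pdgfra cells, which serve here as a gauge of free RNA at median depths of 7821 to 10108 UMIs against 4638 to 5250.5 in members of the small intestine, Il17rb was found in 0.431%, Il4 in 0.180% and Il13 in 0.0102% of cells. Hs3st1 (23.4%) and Vipr2 (34.0%) were common in stromal cells. Cluster 6 also held 10 of the 15 called doublets, 22 members carrying markers of another type and 1257 CPM of Col3a1, against 161 to 376 CPM in the other clusters. Dmd, Lsamp and Tagln, genes of muscle or stroma, were also among its 10 leading genes, in 7, 9 and 6 cells, and were not among them once members carrying other markers were left out. Among its cells without such markers Il17rb was found in 89.5%, Hs3st1 in 84.2%, Il4 in 84.2% and Gata3 in 100%.

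Cluster 5 (48 cells) was ILC3-like, with 6 of 8 ILC3 markers raised. Il23r, the receptor for IL-23, was found in all 48 cells, the stem cell factor receptor gene Kit in 41, Tnfsf11 (RANKL) in 37 and Il22 in 31. Il22 transcripts were seen in 7 of 12, 9 of 15, 10 of 12 and 5 of 9 of its cells in proximal replicates 1 and 2 and distal replicates 1 and 2. Both known kinds of intestinal ILC3 gene were present, since Cxcr5 was found in 13 cells, Ccr6 in 10 and the activating receptor gene Ncr1 in 13. Ncr1 was found together with Cxcr5 in 1 member and with Ccr6 in none. Arg1 (arginase) was found in 12 cells and Il17a in none. A CD3 transcript was present in 3 of the 48 cells and Trbc1 or Trbc2 in 33. No cell of clusters 5 or 7 held Ccl5, and Il23r was found in 0.0902% and Il22 in 0.0975% of stromal Pdgfra cells.

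Cluster 7 (22 cells) was gamma-delta T cell-like, with Trdc, the delta constant chain, in 17 cells, Trgc1 in 11 and Trdv4 in 8. Trgc2, the remaining gamma-delta marker, was found in 7 of the 22 cells and was not raised. It was found in 36 cells of cluster 3, where Trdc and Trgc2 were both raised. Cluster 7 shared the type 17 genes of cluster 5: Il23r was found in 21 cells and Il22 in 9. A CD3 transcript was found in 20 of its 22 cells. Its leading genes were Scart1, which encodes a scavenger receptor, and Blk, a Src family kinase gene, each in 15 cells. The chemokine receptor gene Cxcr6 was found in all 22 cells and in 234 of all members. The cluster held 3, 3, 10 and 6 cells in the 4 small intestinal libraries, and Trdc over all members was found in 4, 6, 11 and 9 cells there.

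Cluster 1 (82 cells) was T cell-like, with 8 of 12 T cell markers raised, a CD3 transcript in 79 cells and Cd4 in 59. Il17a led it, found in 28 of its cells and in 36 members in all. Il23r was found in 67 cells, Il22 in 25 and Ccr6 in 18, and Il22 and Il17a were found together in 14. Il22 stood at 457 CPM here against 467 over all members, and Il23r at 1029 CPM against 2985 in cluster 5 and 2925 in cluster 7. Cd40lg, the ligand by which helper T cells engage CD40, was found in 51 cells and Ctla4 in 74.

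Cluster 8 (14 cells) was regulatory T cell-like. Foxp3, the defining transcription factor gene, was found in 12 cells, Ctla4 in 14, Ikzf2 in 13, Tnfrsf4 (OX40) in 13, Tnfrsf9 in 13 and Il10 in 8. Foxp3 was found in 15 members in all, but Ctla4 in 225 and Ikzf2 in 257, among them all 48 cells of cluster 5. Il2ra, the remaining regulatory marker, was found in 8 of the 14 cells and was not raised, and it was in all 22 cells of cluster 7. Areg was found in 9 of the 14 cells and Il1rl1 in 6, and 5 cells held Il1rl1 and Foxp3 together. The cluster held 4, 4, 2 and 4 cells in the 4 small intestinal libraries.

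Cluster 3 (67 cells) raised 6 of 12 T cell markers and all 9 markers of natural killer cells and ILC1s, and is described by its genes. Nkg7, a cytotoxic granule gene, was found in 64 cells, the chemokine gene Ccl5 in 63, Cd8a in 43, Xcl1 in 35 and Prf1 (perforin) in 21. A CD3 transcript was present in 59 cells. Cd8a and Ccl5 were found together in 41 cells of this cluster and in 43 members in all. Eomes was found in 12 cells and the inhibitory receptor gene Klrc1 in 13. The gamma-delta markers Trdc and Trgc2 were raised as well, in 8 and 36 cells.

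Clusters 2 and 4 were not named, because their 10 leading genes held 2 markers of myeloid cells (cluster 2) or of blood endothelium (cluster 4) and none of T cells or ILCs. Cluster 2 (74 cells) was led by Il1b, Apol7c and H2-Ab1, and held 11 of the 18 cells with Siglech or high MHC class II. It also held Cd4 in 42 cells, Cd40lg in 45, Ccl5 in 49 and Gzmb (granzyme B) in 26. Cluster 4 (58 cells) was led by Fabp4 and Mecom, endothelial genes, and held all 5 cells with Siglech. Genes of circulating naive lymphocytes were in this cluster: Ccr7, the receptor for entry into lymph nodes, was found in 18 of its cells and in 23 members in all, and S1pr1, the receptor for exit into lymph, in 33 of 49. Stmn1 was found in 18 cells and Mki67 in 10.

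The clusters were not equally stable. In the other settings run, which left out members or libraries or changed the resolution or the number of variable genes, the cells of clusters 5 and 6 still made up at least 72% and 85.4% of the cluster that held most of them. Cluster 7 was not separated from the ILC3-like cluster 5 without members carrying other markers, without stromal members or without distal replicate 1. In the joint cluster it was 23.1 to 26.4% and cluster 5 was 72 to 76.9%. Cluster 8 joined a larger cluster, of which it was 14.6 to 32.6%, without Siglech or MHC class II members, stromal members, proximal replicate 2, the cecum or the large intestine. Cluster 1 fell to 36.0% of such a cluster without proximal replicate 2 and to 33.3% without stromal members. Clusters 2 and 3 made up 45.8 and 49.4% of a joint cluster without members carrying other markers, and cluster 4 fell to 24.1% without doublets.

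**Figure D3:**
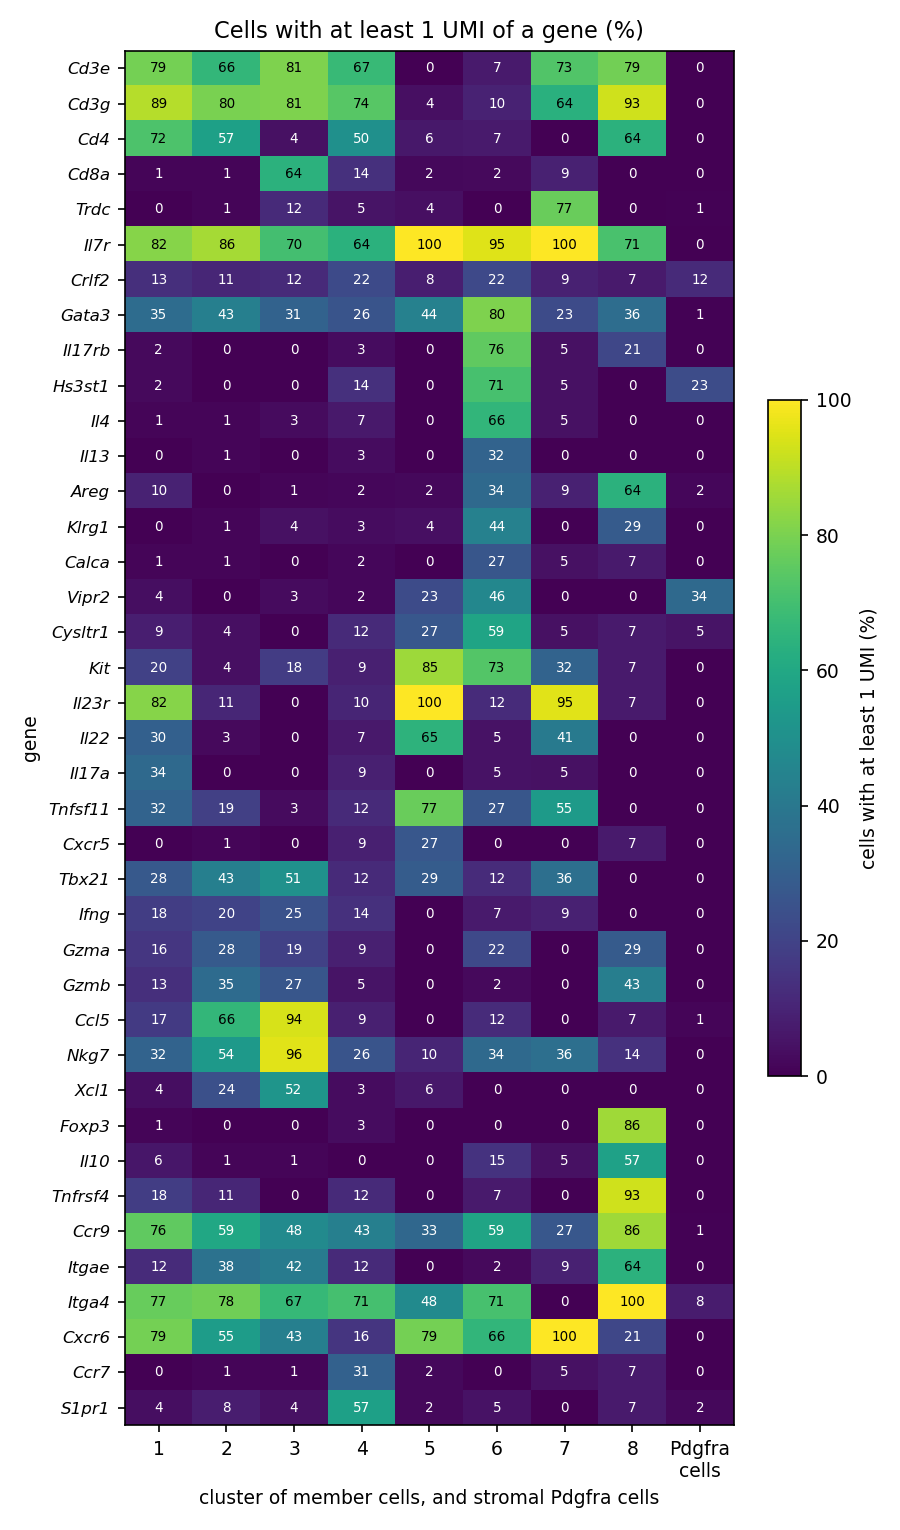
Percent of cells with at least 1 UMI of each gene (rows) in clusters 1 to 8 and in stromal Pdgfra cells, as a gauge of free RNA. Il23r was found in 100% of cluster 5, Il17rb in 75.6% of cluster 6, Trdc in 77.3% of cluster 7 and Foxp3 in 85.7% of cluster 8.

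Transcripts of the TSLP receptor were found in the members, although sparsely for the Crlf2 chain. Crlf2 (chromosome 5, 109702571 to 109706990, GRCm39) was detected in 56 of 406 members, in 11, 17, 13, 11, 2 and 2 cells of the 6 libraries. Every cluster held it, at 1 to 13 cells, with 9 in the ILC2-like and 4 in the ILC3-like cluster. Il7r (chromosome 15, 9505874 to 9530262), a gene of the rule, was found in 334 members and with Crlf2 in 38. Crlf2 summed to 29.2 ± 10.1 CPM in members, 36.7 ± 20.2 in Csf1r cells with Ptprc, 26.4 ± 7.91 in Cd79a cells, 34.8 ± 9.73 in Prox1 cells and 9.89 ± 1.90 in Pdgfra cells (small intestine, n = 4 libraries). The values of the first 4 classes overlapped between libraries. The share of stromal Pdgfra cells with a Crlf2 UMI was 11.99%, at a greater depth than the 13.8% of members, so the share alone does not mark the lymphocytes.

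Of the signalling genes below the receptor some stood higher in members than in the other classes and some did not. Stat5b, a signal transducer of the receptor, stood at 713 ± 111 CPM in members, 215 ± 22.7 in Csf1r cells, 124 ± 10.1 in Cd79a cells and 155 ± 11.3 in Pdgfra cells. Cish, a feedback inhibitor that STAT5 induces, stood at 152 ± 24.7 CPM in members, 22.6 ± 16.96 in Csf1r cells and 20.5 ± 4.04 in Prox1 cells. Jak2 stood at 469 ± 62.9 CPM in members against 129 ± 57.6 in Csf1r cells and 61.5 ± 8.88 in Pdgfra cells. For Jak1, Jak2, Stat5a, Stat5b, Cish and Bcl2 the lowest small intestinal library of members lay above the highest of each other class. The share of all genes that separate these classes in the same way was not computed, so this does not set the pathway apart. Socs1 overlapped with Csf1r cells (32.5 ± 5.90 CPM in members, 14.4 ± 10.7 in Csf1r cells). Socs2 was at 70.4 ± 23.5 CPM in members, 107 ± 11.5 in Prox1 cells and 115 ± 2.61 in Pdgfra cells. These classes were chosen by marker genes and were not tested against each other. Other cytokines, IL-2 and IL-7 among them, signal through STAT5 as well.

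Receptors for neuropeptides, lipids and hormones differed in where they lay, and 14 of the 16 genes of this list were detected. Ptger4, for prostaglandin E2, was found in 173 members and at the highest share in cluster 8 (11 of 14 cells), with 40 cells in cluster 1, 47 in cluster 2, 33 in cluster 3, 10 in cluster 5 and 14 in cluster 6. Cysltr1, for cysteinyl leukotrienes, was found in 24 cells of cluster 6 and 13 of cluster 5 out of 56 members. Vipr2, for vasoactive intestinal peptide, was found in 19 and 11 of these clusters' cells out of 36 members, that is 46.3 and 22.9% of these clusters, and in 3.66, 0, 2.99 and 1.72% of clusters 1 to 4. Stromal Pdgfra cells express Vipr2 too, with a UMI in 34.0% of them. Calca, the gene of calcitonin gene-related peptide, was found in 11 cells of cluster 6 out of 16 members. Ramp3, which pairs with the calcitonin receptor-like receptor, was found in 201 members, with 61 cells in cluster 1, 43 in cluster 2, 31 in cluster 5 and 20 of the 22 in cluster 7. The GLP-2 receptor gene Glp2r was found in 10 members (2.46%) against 35.4% of stromal Pdgfra cells. Whether its UMIs in members come from free RNA was not tested.

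Of the 19 genes of the homing, residence and egress list 18 were detected, and between 3 and 6 of them were found in at least 50% of the cells of each cluster. Ccr9, the receptor for the small intestinal chemokine CCL25, was found in 221 members, in every cluster at 27.3 to 85.7% of cells, and at 339 ± 71.6 CPM in members against 0.718 ± 0.220 in Pdgfra cells. Cd69, a residence and activation gene, was found in 305 members and Cxcr6 in 234. Itgae (CD103), which binds epithelial cadherin, was found in 85 members, 28 each in clusters 2 and 3 and none in cluster 5.

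Members with a CD3 transcript were compared with those without it, within each library, to ask what separates T cells from ILCs beyond the genes of the rule. The 18 cells with Siglech or high MHC class II and 12 genes of the gates and the rule were left out. Of 3946 genes tested, 581 (14.7%) passed an adjusted p of 0.05 in edgeR's quasi-likelihood test with library as a block, 252 higher (6.39%) and 329 lower (8.34%) in members with CD3. Both groups lack Pdgfra and hold Ptprc by the rule, members without CD3 had to hold Il7r, and some T cells will have missed a CD3 UMI at this depth. With the 18 cells kept, 671 of 4400 genes passed (15.2%), 267 higher (6.07%) and 404 lower (9.18%). Without proximal replicate 2 the count was 281, with 275 genes shared. DESeq2 called 274 (96 higher and 178 lower), limma-voom 625, and edgeR 403 of 2217 genes with the members carrying other markers left out instead. A gene low in both groups could not enter the test, so counts within a list cover only genes that passed the filter on low counts, in some cases through 1 group alone.

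T cell receptor signalling genes that were not used for choice were higher in members with CD3. Cd6, a costimulatory receptor gene, had 218, 356, 203 and 314 CPM in members with CD3 of proximal replicates 1 and 2 and distal replicates 1 and 2, and 8.58, 19.7, 0 and 11.0 CPM in those without. The 2 groups did not overlap (log2 fold change 4.57, SE 0.34, adjusted p = 1.63e-05). Cd2 had 127 to 181 CPM with CD3 and 0 to 24.1 CPM without (4.69, SE 0.58, adjusted p = 0.000285). Of the 18 genes of this list 11 could be tested, and 8 were higher and none lower. A split by CD3 brings this direction with it, and some genes may have passed the filter through the group with CD3 alone. The tally is therefore a description. The kinase gene Zap70 did not pass (log2 fold change 0.18, SE 0.22, adjusted p = 0.662).

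Some genes of cytotoxicity and costimulation were also higher with CD3. Ccl5 had 1171 to 2106 CPM with CD3 and 77.2 to 313 CPM without (log2 fold change 3.06, SE 0.28, adjusted p = 4.50e-05). Itgae had 66.7 to 131 CPM with CD3 and 0 to 12.03 CPM without (4.65, SE 0.66, adjusted p = 0.000750). Among 8 cytotoxic genes tested 4 were higher (Gzmb, Nkg7, Ccl5 and Fasl) and Klrk1 was lower. Among 7 activation and costimulation genes tested 4 were higher (Ctla4, Tnfrsf4, Tnfrsf9 and Cd40lg) and none lower. Over all genes tested 6.39% were higher and 8.34% lower. Some listed genes may have passed the filter through 1 group alone, so both tallies are a description. Il17a and Ifng were higher with CD3, by log2 fold changes of 3.28 and 2.13.

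Kit, Klrb1b, Il17rb and Vipr2 were higher in members without CD3. Kit had 532, 592, 493 and 800 CPM in them and 27.6, 37.6, 48.5 and 49.1 CPM in members with CD3 (log2 fold change -3.88, SE 0.21, adjusted p = 2.30e-06). Klrb1b, a lectin-like receptor gene, had 585 to 854 CPM without CD3 and 17.9 to 37.8 CPM with it in the small intestine (-4.57, SE 0.24, adjusted p = 2.07e-06). Il17rb had 172, 183, 108 and 591 CPM without CD3 and 2.76, 3.58, 3.03 and 18.9 CPM with it (-5.19, SE 0.34, adjusted p = 6.27e-06). Vipr2 had 68.6 to 192 CPM without CD3 and 0 to 6.07 CPM with it in the small intestine (-5.09, SE 0.57). For all 4 genes every library without CD3 lay above every library with it. Hes1, a Notch target gene, was lower with CD3 (log2 fold change -3.94, SE 0.36). Col3a1 had 218, 170, 576 and 518 CPM with CD3 and 446, 316, 337 and 618 CPM without (adjusted p = 0.422), and the part of stromal RNA in these differences was not tested. With members carrying other markers left out instead, Kit and Klrb1b still passed (-4.42, SE 0.31, and -4.59, SE 0.35), while Il17rb, Vipr2 and Hes1 fell below the filter on low counts.

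Cytokine genes divided between the groups. Il22 had 1655, 829, 2201 and 88.3 CPM without CD3 and 149, 192, 1025 and 106 CPM with it (log2 fold change -1.79, SE 0.41, adjusted p = 0.0133), and in distal replicate 2 the order was the other way round. Areg had 96.2 to 155 CPM without CD3 and 18.9 to 91.0 CPM with it (-1.57, SE 0.40, adjusted p = 0.0206). Tnfsf11 was higher without CD3 as well (-1.84, SE 0.24, adjusted p = 0.000394). Of 15 immediate-early and heat-shock genes 10 were lower with CD3, Fos by a log2 fold change of -1.49 and Nr4a1 by -1.66, and Dnajb1 was higher. Over all genes tested 8.34% were lower and 6.39% higher, and this tally is a description too. In the TSLP list Stat5b was higher with CD3 (0.90, SE 0.15, adjusted p = 0.00190) and Socs2, a STAT5 target gene, was lower (-1.75, SE 0.42, adjusted p = 0.0153). Socs2 stood higher in stromal Pdgfra cells than in members, as given above, was found in 48.8% of cluster 6 but 26.3% of its cells without other markers, and could not be tested with those members left out. Jak1, Jak2, Cish and Bcl2 did not pass, and Crlf2 was below the filter on low counts.

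**Figure D4:**
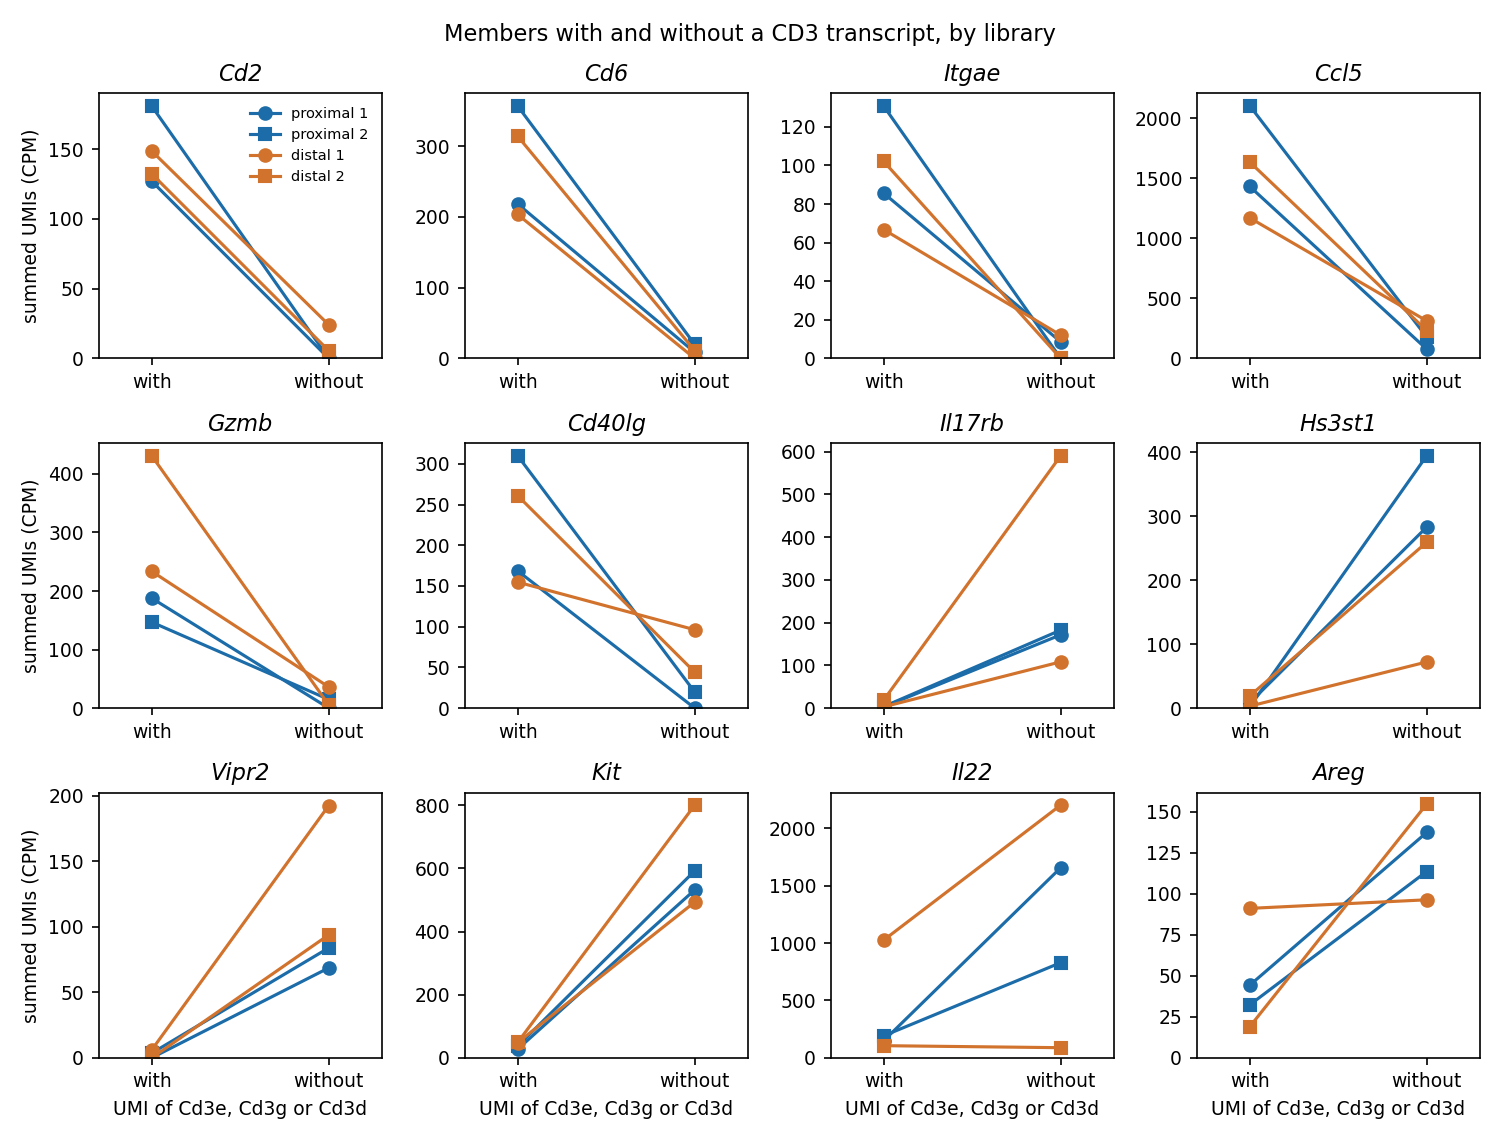
Summed UMIs in CPM for 12 genes in members with and without a UMI of Cd3e, Cd3g or Cd3d, 1 line for each small intestinal library and 18 cells with Siglech or high MHC class II left out. Cd2, Cd6 and Itgae fell to between 0 and 24.1 CPM without CD3, while Kit, Il17rb and Vipr2 were higher without it in all 4 libraries.

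A second gate gave a similar contrast with fewer cells. Members with at least 2 of 7 T cell receptor and CD3 genes (331 cells) were set against the 33 members with none. Trbc1 and Trbc2 count towards this gate, so that the 331 cells include 17 of the ILC3-like and 21 of the ILC2-like cluster. All members were kept here, and 271 of 1631 genes passed (16.6%), 124 higher (7.6%) and 147 lower (9.01%) in the first group. The genes lowest in it were Grm8 and Siglech, at 0 CPM in all 6 libraries with the receptor genes and at 341 to 591 and 182 to 369 CPM without, and all 5 cells with Siglech held both. Without the 18 cells 102 of 1117 genes passed (9.13%), 47 higher (4.21%) and 55 lower (4.92%). Ccl5, at 1044 to 1771 CPM with and 0 to 22.7 CPM without receptor genes in the small intestine, was still higher (log2 fold change 7.46, SE 0.57, adjusted p = 1.82e-05), and Tnfsf11 and Kit were still lower (-2.44, SE 0.33, and -1.99, SE 0.35, adjusted p 0.00119 and 0.00578). Of 8 receptor signalling genes tested with all members 8 were higher, a direction that a gate on receptor genes brings with it. The count fell to 162 without proximal replicate 2 and to 169 without distal replicate 1. It was 17 without the members carrying other markers, which left fewer cells and genes to test.

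The makeup of the members was compared between proximal and distal small intestine. The second gate took 83.3 and 81.6% of proximal and 83.5 and 74.1% of distal members, a difference of 3.67 percentage points (two-sided exact permutation test, p = 1). Members without CD3 were 26.7 and 29.6% of proximal and 24.2 and 39.5% of distal members. Those with at least 2 ILC2 marker genes numbered 7, 12, 2 and 16, and those with at least 2 ILC3 marker genes 9, 16, 12 and 7. A strict gate for ILC2s, with none of the 7 genes, left 2 cells and allowed no comparison of use.

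Few genes were called between proximal and distal members. Of 7177 genes tested, 3 passed (0.0418%), 2 higher (0.0279%) and 1 lower (0.0139%) in proximal members, and 349 had an unadjusted p under 0.05. Hspa1b (chromosome 17, 35175412 to 35178214), an inducible HSP70 gene, had 1111 and 1078 CPM in proximal and 228 and 240.0 CPM in distal members (log2 fold change 2.23, SE 0.24, adjusted p = 0.0407). Dnajb1, an HSP40 gene, had 239 and 266 CPM in proximal members against a mean of 56.1 CPM in the 2 distal libraries (2.17, SE 0.26, adjusted p = 0.0497). Hspa1a had 635 and 747 CPM against 211 and 187 CPM and missed the threshold (1.80, SE 0.24, adjusted p = 0.0592). Proximal libraries lay above distal ones for all 3 genes.

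The same order was seen in other cells of the same libraries. Hspa1b stood at 1391 and 2054 CPM in proximal and 307 and 991 CPM in distal Csf1r cells, at 959 and 1011 against 207 and 491 CPM in Cd79a cells, at 2037 and 2863 against 996 and 1429 CPM in Prox1 cells, and at 538 and 457 against 315 and 328 CPM in Pdgfra cells. The difference was therefore not limited to T cells and ILCs, and its cause was not tested. Dnajb1 was higher proximally in Csf1r, Cd79a and Prox1 cells as well, but stood at 122 and 118 against 186 and 113 CPM in Pdgfra cells. Gpc6, a stromal glypican gene, had 9.28 and 20.5 CPM in proximal and 153 and 118 CPM in distal members (-3.10, SE 0.39, adjusted p = 0.0497), and stood at 836 and 1025 against 1004 and 1768 CPM in Pdgfra cells. Col3a1 was at 293 and 212 against 588 and 556 CPM in members without passing (adjusted p = 0.335). Leaving out any library left 1 library in an arm, so those counts are not used. With the replicate number as a block 82 genes were called, in a fit with fewer degrees of freedom left to measure the spread.

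**Figure D5:**
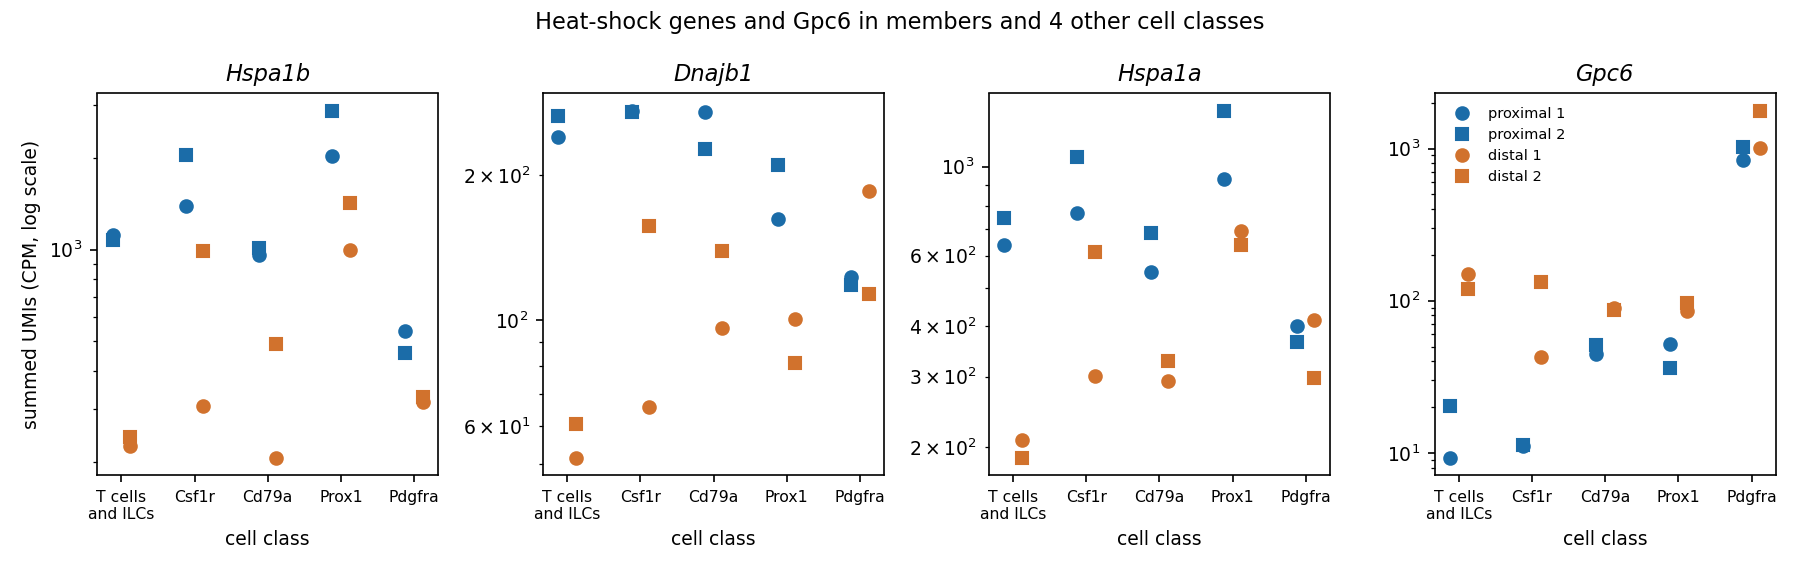
Summed UMIs in CPM (log scale) of Hspa1b, Dnajb1, Hspa1a and Gpc6 in T cells and ILCs and in cells chosen by Csf1r, Cd79a, Prox1 or Pdgfra, 1 point for each small intestinal library. Hspa1b was higher in both proximal libraries than in both distal ones in all 5 classes.

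Lymphocyte genes were not called between the regions, in a fit that recovered 22% of simulated 2-fold changes. Gzma (granzyme A) had 184 and 226 CPM in proximal and 722 and 1822 CPM in distal members (log2 fold change -2.63, SE 0.42, adjusted p = 0.123), although the cells with a UMI numbered 14 and 21 against 13 and 17. Il22 had 458, 354, 1098 and 97.8 CPM and Il17rb 39.0, 49.9, 20.9 and 249 CPM, with the distal replicates at both extremes. Crlf2 had 22.3 and 21.7 CPM in proximal and 43.9 and 28.9 CPM in distal members (-0.73, SE 0.43, adjusted p = 0.999). Of the 10 genes of the TSLP list none passed, and their median log2 fold change was -0.08 against -0.01 over all genes. Apart from Hspa1b and Dnajb1, no gene of the 14 lists passed in this fit, which had no replicate block. The lists were not counted in the fit with that block.

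The small intestine was compared with the cecum and large intestine on 387 against 19 cells. The cecum and large intestine had 1 library each, so the spread in this fit came from the small intestinal replicates alone. The lone libraries were assumed to vary like them, although they hold far fewer cells. Of 7439 genes 50 passed (0.672%), 38 higher (0.511%) and 12 lower (0.161%) in the small intestine. The median log2 fold change over all genes was 0.67, so values are to be read against it. Klf2, a transcription factor gene that controls exit from tissue, had 96 and 93 UMIs in the cecum and large intestine, or 2103 CPM, against 271 CPM in the small intestine (log2 fold change -2.97, SE 0.29, adjusted p = 0.00728). Lef1 was at 1469 against 208 CPM (-2.53, SE 0.34, adjusted p = 0.0217). Both genes were found most often in cluster 4, where 13 of those 19 cells lay. Gzma had 1441 UMIs in the small intestine and 0 in both others. The 1441 UMIs lay in 65 cells, with 664 of them in 9 cells of cluster 6. With 3 UMIs over the 2 libraries in place of 0 the fold would be 19.2. A single positive cell could bring more than 3 UMIs, so this is no lower bound. Distal replicate 2 gave 820 of the 1441 UMIs, and without it that fold would be 10.3. In cluster 4, which held 13 of the 19 cells, 8.62% of cells had a Gzma UMI. Il23r stood at 760 CPM against 156 CPM, with no UMI from the cecum and 14 UMIs from the large intestine, and Ccr9 at 342 against 55.6 CPM. These calls are weak: limma-voom called 0 genes (427 at an unadjusted p under 0.05) and DESeq2 155. With 1 small intestinal library left out, edgeR called between 0 (without proximal replicate 2) and 694. Leaving out the cecum or the large intestine left 1 library in that arm, so those counts are not used.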

How the data were processed

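Droplet single-cell RNA-seq (10x Genomics 3′ chemistry) was done on sorted tdTomato+ lamina propria cells. The authors deposited raw, unfiltered UMI counts per gene and barcode, made with Cell Ranger against mm39 with the tdTomato sequence added. The submitters' processing notes name Cell Ranger 8.1.0 and the file headers 8.0.1. The files held 33697 gene rows and 109675337 to 206827504 gene UMIs per library. No doublet or free RNA correction was in these counts.

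A barcode was kept as a cell if it held 1000 to 7500 genes, between 2500 and 40000 UMIs, and less than 10% of UMIs from mitochondrial genes. Members were chosen by the rule given above. The members and the 14 gene lists were chosen with earlier results of these data known. The comparison by CD3 genes and the removal of the 18 cells with Siglech or MHC class II transcripts were chosen after seeing the data. Members were clustered with scanpy 1.11.5 (Python 3.11.15; 2000 variable genes, 30 principal components, 20 neighbours, Leiden resolution 0.5). Raised markers were those at 1.5 times the level of the remaining members or more, seen in at least 5% of the cluster. Doublets were called but kept.

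UMIs were summed per library, or per library and gate, and tested with edgeR 4.0.16 (quasi-likelihood test, filterByExpr with a minimum count of 10, Benjamini-Hochberg adjustment at 0.05, R 4.3.3), with limma 3.58.1 (voom) and DESeq2 1.42.0 as alternatives. Comparisons by gate had library as a block. Fold changes are on the log2 scale. Shares were compared by two-sided exact permutation tests over libraries. Groups came from the sample labels. Nothing ties a library to single mice, so p-values measure the spread between these libraries, which may be technical. In the fit of small intestine against the others that spread came from the small intestinal replicates alone. Genes named are those of the lists and markers, the TSLP receptor pathway, and up to 5 per direction with the largest change among called genes whose libraries were fully separated. Other named genes (Col3a1, Hspa1a, Apol7c and the leading genes of clusters among them) were chosen after their values were seen. Each fit was tested on simulated counts with 200 genes changed, by 2-fold or 4-fold. The proximal against distal fit recovered 22% of 2-fold and 78% of 4-fold changes. The fit of small intestine against the others recovered 5% and 20%. The fits by receptor genes and by CD3, with all members, recovered 42 and 45% of 2-fold changes and 96% of 4-fold changes. Genes not called are therefore no evidence of equal levels. Coordinates are those of the GENCODE annotation of GRCm39, the same build as mm39.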

Additional observations from a re-analysis of the deposited data

Results flagged for a closer look

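With the cell filter lowered to 500 genes and 1000 UMIs, 4489 further barcodes were kept, and 57 of them met the rule for T cells and ILCs. These barcodes lie outside every comparison above. By library they numbered 14 of 869, 12 of 710, 12 of 878, 15 of 929, 4 of 771 and 0 of 332 (proximal replicates 1 and 2, distal replicates 1 and 2, cecum, large intestine). A CD3 transcript was found in 27 of the 57. They would raise the total from 406 to 463 members.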

How the results depend on the processing

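The differences in the share of members kept their direction under every alternative run, between 0.108 and 0.285 percentage points for proximal against distal and between 0.373 and 0.473 for small intestine against the others when 1 library was left out. The share of receptor-gated cells (proximal minus distal) ranged from -1.05, without distal replicate 2, to 8.39 percentage points. The share of strictly gated ILC2-like cells, which rests on 2 cells, ranged from -0.835 to 0.4 (0.183 without proximal replicate 1, 0.4 without distal replicate 2) and turned to 0.407 without doublets, 0.463 without members with stromal transcripts and 0.617 without members carrying other markers. Leaving out 1 library gave 7 to 8 clusters, a resolution of 1 gave 11, and removing carriers of other markers or stromal members gave 6.

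The 3 genes called between proximal and distal members became 14 with DESeq2, 120 with no filter on low counts, 10 among receptor-gated members, 0 among members without receptor genes and 5 with all 6 libraries in the fit, and ranged from 47 to 118 when 1 library was left out. With the replicate number as a block (replicate block) 82 genes were called. The labels do not say what the numbers mark. Same-numbered proximal and distal libraries held the same 3 hashtags and libraries of different number shared 0. The cecum and large intestine libraries held the same 3 as proximal and distal replicate 1 and shared 0 with the replicate 2 libraries. The replicate 2 set was therefore seen in the small intestine alone. The deviations of same-numbered proximal and distal libraries from their group means correlated at r = 0.160 over 7177 genes. Whether they came from the same mice or day is not given in the sources used here, and with 2 pairs the pairing was not settled. The 50 genes called between small intestine and the others became 0 with limma-voom, 155 with DESeq2, 607 with no filter, 32 with free RNA subtracted, 161 without doublets, 215 without stromal members, 82 among receptor-gated members and 29 without members carrying other markers, with 0 to 694 when 1 library was left out. The number of genes, TCR-gated members versus members without TCR genes, was 271 and became 172 with DESeq2, 860 with no filter, 156 without several hashtags, 50 under a stricter rule, 23 without stromal members, 105 with thinned cells, 17 without members carrying other markers and 102 without Siglech or MHC class II members, with 162 to 292 when 1 library was left out. Gating by CD3 gave 671, and 581 with those members removed as well.

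In that comparison 5 named genes changed sign in at least 1 setting: Cd44 (0.55 under the stricter rule, 0.52 without Siglech or MHC class II members, 0.14 by CD3 without them), Cd74 (0.76 by CD3 without them), Ikzf2 (-0.00449 by CD3, -0.24 by CD3 without them), Jund, TCR-gated against without TCR genes (0.00748 without stromal members), and Klf2 (0.57 with no library block, 0.021 without Siglech or MHC class II members, 0.79 by CD3 without them). The cause was not tested. The small intestine comparison among members without receptor genes was not run, because the cecum and large intestine had none. The depth of 8 and 11 cells limits every value from those libraries.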
